A study of Homo sapiens with 6 samples.

Results

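The nuclear genes of the mitochondrial respiratory chain were followed in NB4 cells. NB4 is an established human line from acute promyelocytic leukemia, and all-trans retinoic acid (ATRA) makes it mature toward granulocytes. Members were taken by symbol: every gene of either count table whose symbol starts with NDUFA, NDUFB, NDUFC, NDUFS, NDUFV, UQCR, COX4 to COX8 or ATP5, or is SDHA, SDHB, SDHC, SDHD or CYC1. This gave 88 of 13289 genes, and all 88 were listed in both tables. Of these, 37 encode subunits of complex I, 4 of complex II, 9 of complex III, 11 of complex IV and 15 of complex V. The other 12 carry a matching symbol but are assembly factors (NDUFAF1 to NDUFAF7) or related genes (NDUFA4L2, COX7A2L, ATP5S, ATP5SL and UQCRHL). NDUFA4 was placed with complex IV, where its protein is now known to sit. There were 6 RNA-seq libraries. In ATRA at 1 µM these were SMARCD2 hairpin 1, SMARCD2 hairpin 2 and a control construct. In the vehicle DMSO they were the same hairpins and the control construct. SMARCD2 belongs to BAF (SWI/SNF), a complex that remodels chromatin. All libraries come from 1 cell line, the hairpin lowers but does not remove SMARCD2, and the sources used here do not state how long the treatment lasted.

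Complexes I and II pass electrons from NADH and from succinate to ubiquinone. Complex III passes them on to cytochrome c and complex IV to oxygen. The proton gradient built on the way drives ATP synthesis by complex V. A few core subunits are encoded by mitochondrial DNA, and all others by nuclear genes whose promoters are known for sites of NRF1, of the ETS factor GABPA and of YY1. Promyelocytes hold more mitochondria than mature neutrophils, which draw most of their ATP from glycolysis.

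Library totals ran from 29291209 to 58099733 counts, and levels are given as CPM (counts per library size, scaled by TMM) unless said otherwise. SMARCD2 stood at 64.2 CPM with hairpin 1, 35.6 with hairpin 2 and 122 with the control in ATRA, and at 39.0, 25.7 and 95.5 CPM in DMSO. Of the 9 markers fixed for the promyelocyte and granulocyte lineage, 8 were listed in ATRA and 9 in DMSO, with a summed level (unscaled CPM) of 5567 to 7140 in ATRA, below the DMSO libraries, whose sum was led by MPO at 10379 to 10474. Of the 8 tested in both, CSF3R, PRTN3, PML and CD33 rose in ATRA and MPO, AZU1, CTSG and RARA fell, and the call of CD33 was lost with total counts. ELANE was listed in the DMSO table alone, at 0.0861 to 0.645 unscaled CPM. None of the erythroid or fibroblast markers was listed in DMSO, and in ATRA 1 of each was listed, at a summed 0.428 to 0.474 and 3.96 to 5.12 unscaled CPM. Lymphocyte markers summed to 7.12 to 9.59 in ATRA and 13.9 to 17.8 in DMSO, and epithelial markers to 35.6 to 44.3 and 51.4 to 57.4. The part of these other cell types in the results was not tested. Run 1 of the 2 assumed sequencing runs gave 53.1% and 54.6% of the control libraries but 70.6% to 80.7% of the knockdown libraries. Within each library the gene counts of the runs differed by more than sampling. Their chi-square per degree of freedom was 4.85 to 6.65 over the libraries, where sampling alone would give about 1. The cause of this difference was not tested. The 13 respiratory chain genes of mitochondrial DNA were not in both tables, 0 of 13, so the nuclear genes could not be set beside them. In bulk RNA, fewer cells of a type and less RNA per cell cannot be told apart. The labels do not say that libraries came from separate cultures, so p-values measure only the spread between these libraries.

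Promoters of 5 members are shown because the results below turn on these genes. COX8A and NDUFA4 had the highest ATRA response of complex IV. SDHB and SDHD were higher in ATRA while other parts of complex II were lower. ATP5G2 was the member of complex V with the lowest response. Each window holds 250 bases before to 50 bases after the RefSeq start (GRCh38.p14), read 5′ to 3′ on the gene's strand. Capitals mark matches to GCGCATGCG (NRF1), CCGGAAGT (ETS factors such as GABPA), AAGATGGCG (YY1) or TCAAGGTCA (ESRRA), searched on both strands.
COX8A, chr11:63974370-63974669, plus strand: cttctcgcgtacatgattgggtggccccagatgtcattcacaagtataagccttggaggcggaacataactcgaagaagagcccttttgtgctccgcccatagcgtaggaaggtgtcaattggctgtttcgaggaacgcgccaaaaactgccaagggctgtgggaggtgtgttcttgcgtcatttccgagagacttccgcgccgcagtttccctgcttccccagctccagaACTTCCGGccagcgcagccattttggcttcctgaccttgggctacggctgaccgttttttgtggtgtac
NDUFA4, chr7:10940104-10940403, minus strand: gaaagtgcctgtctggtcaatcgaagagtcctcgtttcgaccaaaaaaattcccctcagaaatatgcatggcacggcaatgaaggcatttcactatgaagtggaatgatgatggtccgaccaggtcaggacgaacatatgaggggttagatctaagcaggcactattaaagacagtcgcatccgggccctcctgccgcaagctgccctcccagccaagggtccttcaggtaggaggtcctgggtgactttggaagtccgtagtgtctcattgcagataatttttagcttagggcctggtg
SDHB, chr1:17053983-17054282, minus strand: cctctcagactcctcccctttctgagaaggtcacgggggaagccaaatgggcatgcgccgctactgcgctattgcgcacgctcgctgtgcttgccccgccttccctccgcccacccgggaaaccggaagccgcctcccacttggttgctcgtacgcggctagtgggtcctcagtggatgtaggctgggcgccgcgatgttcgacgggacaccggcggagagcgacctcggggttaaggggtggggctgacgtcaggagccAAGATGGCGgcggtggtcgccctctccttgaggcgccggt
SDHD, chr11:112086623-112086922, plus strand: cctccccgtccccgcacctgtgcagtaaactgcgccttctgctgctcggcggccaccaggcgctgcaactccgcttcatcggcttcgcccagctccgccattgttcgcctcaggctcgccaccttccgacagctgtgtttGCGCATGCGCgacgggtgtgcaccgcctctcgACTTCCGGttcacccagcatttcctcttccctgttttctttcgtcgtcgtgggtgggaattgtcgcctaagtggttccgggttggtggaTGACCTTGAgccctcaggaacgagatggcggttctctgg
ATP5G2, chr12:53676034-53676333, minus strand: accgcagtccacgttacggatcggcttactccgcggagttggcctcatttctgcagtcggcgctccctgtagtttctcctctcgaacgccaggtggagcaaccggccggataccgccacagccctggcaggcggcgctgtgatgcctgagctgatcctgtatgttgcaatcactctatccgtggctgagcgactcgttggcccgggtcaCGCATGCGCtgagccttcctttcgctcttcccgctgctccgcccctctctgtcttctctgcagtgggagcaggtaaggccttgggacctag
COX8A held the ETS letters as ACTTCCGG at bases -19 to -12 from the start, and NDUFA4 held none of the motifs. SDHB held the YY1 letters at bases 11 to 19. SDHD held 3 kinds: the NRF1 letters on both strands in 1 overlapping run from -110 to -101, the ETS letters at -78 to -71 and the ESRRA letters as TGACCTTGA at bases 12 to 20. ATP5G2 held the NRF1 letters as CGCATGCGC at -41 to -33.

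Promoter windows were found for 72 of the 88 members. Of the genes described below, NDUFB9, SDHC, CYC1, COX6C, ATP5B, ATP5D, ATP5G3, NDUFAF6 and UQCRHL were not matched. The NRF1 letters stood in 11 of 72 member promoters (15.3%), against 3.77% of the promoters of all tested genes and 2.10% of all promoters. The YY1 letters stood in 8 (11.1%), against 4.05% and 1.85%. The ETS letters stood in 9 (12.5%), against 8.90% and 4.44%. The ESRRA letters stood in 1 (1.39%), against 0.179% and 0.359%. By complex, the NRF1 letters were in 4 of 11 complex V promoters, 4 of 32 of complex I, 1 of 3 of complex II, 0 of 7 of complex III, 1 of 10 of complex IV and 1 of 9 of the assembly and related group. These are matches of letters and say nothing of binding.

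ATRA was set against DMSO over the 3 constructs to ask which members move with differentiation. Of the 88 members, 37 were higher and 20 lower in ATRA at an adjusted p under 0.05 (edgeR's quasi-likelihood test). Among all 12301 genes tested, 36.2% were higher and 37.8% lower, so 74% passed in either direction. Of the members, 57 (64.8%) passed, fewer than in that background. The members' responses were narrow: their log2 fold changes had an SD of 0.36, against 1.16 over all genes. A called change of more than 2-fold was seen in 1 member on each side, against 1469 genes higher and 1142 lower of all 12301. The median of the members was 0.01, against -0.01 over all genes. The ATRA libraries all lay above the DMSO libraries in 36 members and all below in 23, together 67.0%, against 77.1% of all genes. Scaling matters for this balance: with total counts in place of TMM, 24 members were higher and 41 lower, and 29.6% of all genes were higher and 46.5% lower, as the median of all genes moved to -0.14 and that of the members to -0.11. Members together took 0.667 ± 0.004% of the counts in ATRA and 0.708 ± 0.006% in DMSO (SD, n = 3 each). On the TMM scale their summed level was 6981 ± 36.4 CPM in ATRA and 6768 ± 90.4 CPM in DMSO, so the direction of the total depends on the scaling.

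**Figure D1:**
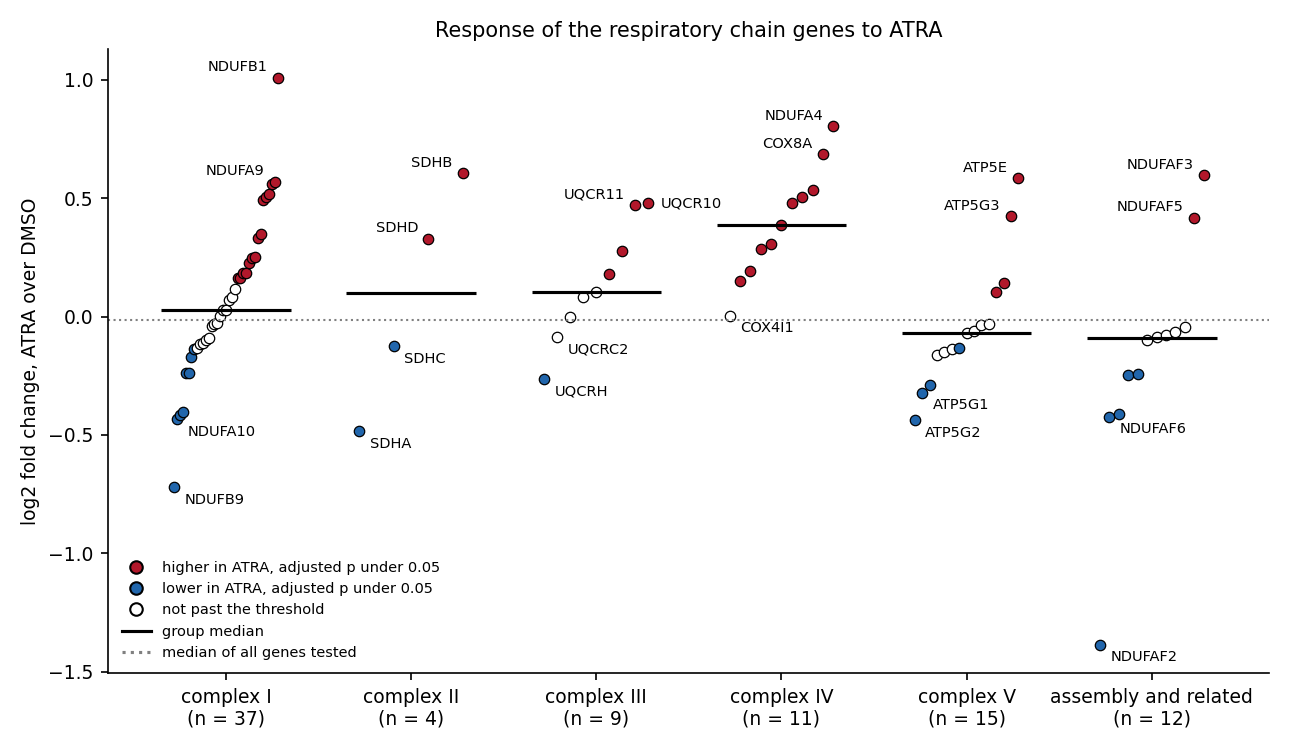
Each point is 1 of the 88 members, with its log2 fold change for ATRA over DMSO on the y axis and its complex on the x axis. Filled points passed an adjusted p of 0.05, bars are group medians and the dotted line is the median of all genes tested; complex IV lies almost wholly above it, while the other groups lie on both sides.

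Complex IV was the group with the most even response. Of its 11 nuclear subunits, 10 rose in ATRA and none fell, against 36.2% and 37.8% of all genes, with a median log2 fold change of 0.39. With total counts 8 rose and 1, COX4I1, fell, against 29.6% and 46.5% of all genes. In 10 of 11 the ATRA libraries all lay above the DMSO libraries (90.9%), and the same held for 4623 of all 12301 genes. In either direction, 77.1% of all genes did not overlap. In what follows, values in threes are those of hairpin 1, hairpin 2 and the control. NDUFA4, the last subunit to be assigned to this complex, had 112.4, 101 and 105 CPM in the ATRA libraries, against 63.4, 56.1 and 62.7 CPM in the DMSO libraries. All ATRA values lay far above all DMSO values (log2 fold change 0.80, SE 0.07, adjusted p = 7.05e-06). COX8A, a small single-pass subunit, had 119, 119 and 109 CPM in the ATRA libraries, against 74.1, 72.1 and 69.1 CPM in the DMSO libraries. These groups did not overlap either (log2 fold change 0.69, SE 0.04, adjusted p = 1.27e-06). COX5A, a matrix-side subunit, had 109.8, 104 and 120.4 CPM in the ATRA libraries, against 73.9, 71.4 and 85.7 CPM in the DMSO libraries, again with no overlap and with the control highest in both treatments (log2 fold change 0.54, SE 0.05, adjusted p = 1.03e-05).

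The other complex IV subunits that rose had smaller or like changes. COX7B (0.50), COX5B (0.48), COX7A2 (0.39), COX6C (0.31), COX6B1 (0.29), COX6A1 (0.19) and COX7C (0.15) are given as log2 fold changes. With total counts COX6A1 (0.06, adjusted p = 0.247) and COX7C (0.022, adjusted p = 0.674) kept their sign but did not pass. COX4I1 was the exception. It had 241, 224 and 244 CPM in the ATRA libraries, against 241, 234 and 232 CPM in the DMSO libraries, and the groups overlapped (log2 fold change 0.00, SE 0.05, adjusted p = 0.952). It is also the complex IV gene with the highest level per length, at 298 CPM per kb of transcript in ATRA and 297 in DMSO. The NDUFA4 to COX4I1 ratio, which needs no scaling, was 0.449 ± 0.019 in ATRA and 0.258 ± 0.016 in DMSO (SD, n = 3 each). Only 1 isoform of each subunit family of complex IV was among the members: COX4I1, COX6A1, COX6B1, COX7A2 and COX8A, the forms known as ubiquitous or liver-type, while COX4I2, COX6A2, COX6B2 and COX7A1 were listed in neither table. COX6C has 17 named pseudogene copies in the GENCODE annotation and COX6B1 has 7, so reads of these may have been assigned in part elsewhere.

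**Figure D2:**
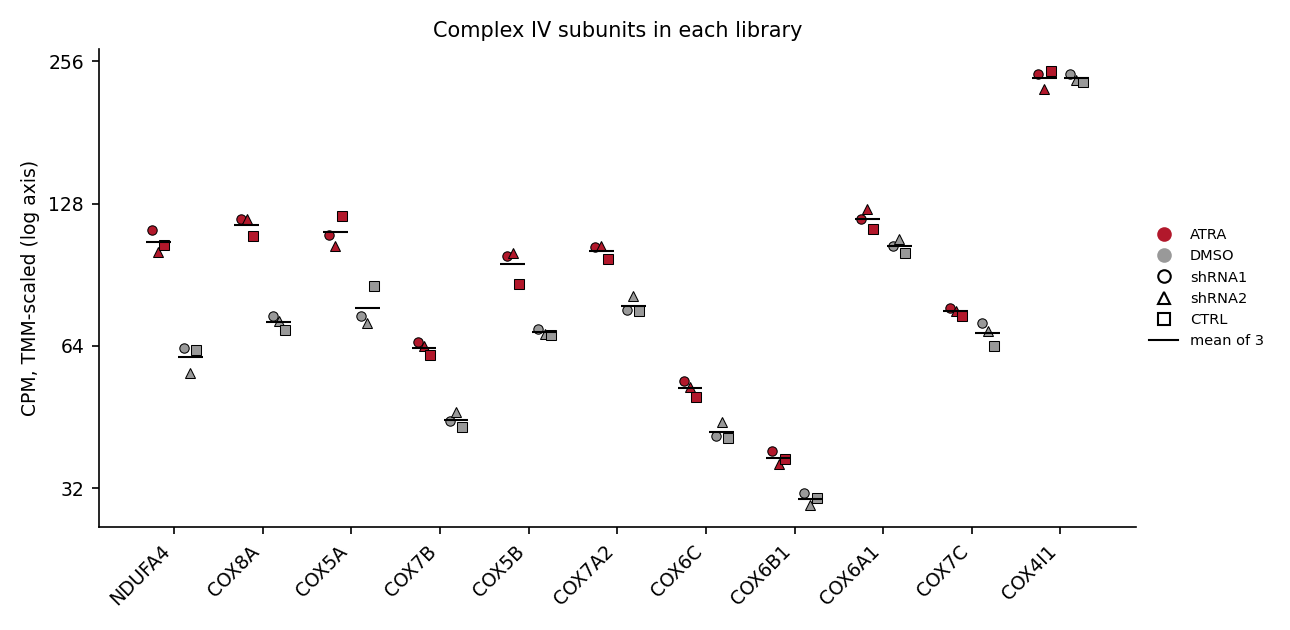
CPM on a log axis for the 11 complex IV subunits in each of the 6 libraries, with ATRA left of DMSO for each gene, symbols for the constructs and bars for the mean of 3. The ATRA points stand above the DMSO points for all genes but COX4I1, whose points overlap.

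Set against other complexes within the same library, complex IV gained. Its summed counts were 0.523, 0.503 and 0.508 of those of complex V in ATRA, against 0.404, 0.404 and 0.393 in DMSO. The ATRA values all lay above the DMSO values (0.511 ± 0.011 in ATRA and 0.400 ± 0.007 in DMSO, SD, n = 3 each). Against complex I the ratio was 0.504 ± 0.008 in ATRA and 0.401 ± 0.002 in DMSO. The ratio of complex I to complex V was 1.01 ± 0.004 in ATRA and 0.997 ± 0.018 in DMSO, with overlapping libraries. With 3 libraries against 3, the exact 2-sided permutation test cannot go below p = 0.1, and 7 of the 8 ratios computed here had that p, complex I over complex V being the exception at 0.2. The ratios were formed from genes whose responses in the same libraries are given here, and the 3 subunit c shares depend on each other. They restate those responses within a library and are not separate results.

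**Figure D3:**
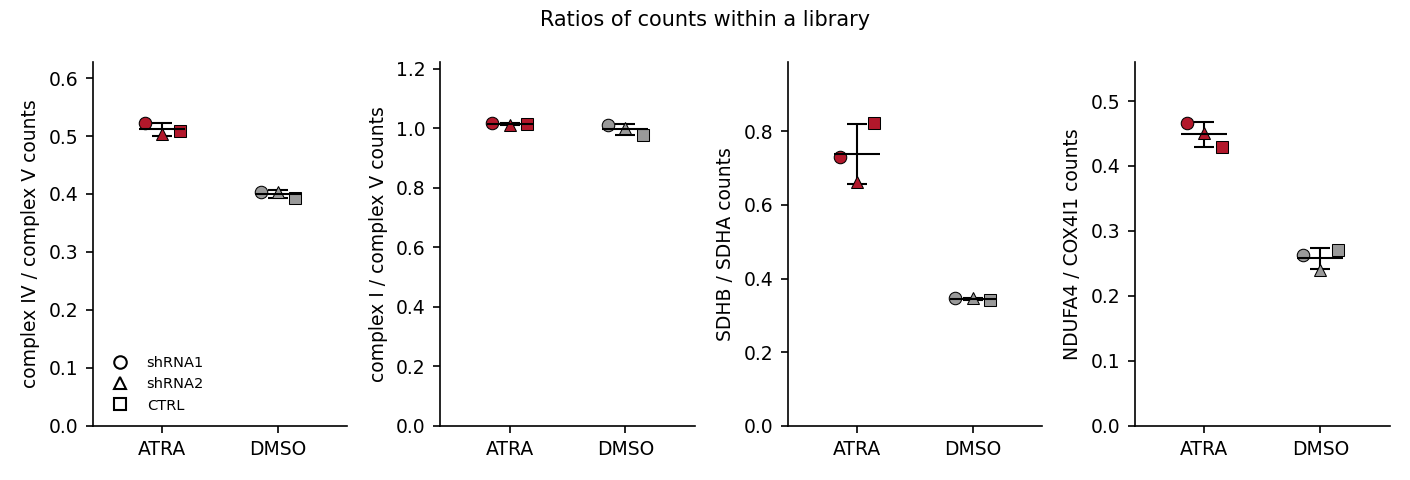
Ratios of raw counts within a library on the y axes, with ATRA left of DMSO, symbols for the constructs, and the mean with its SD over 3 libraries. Complex IV over V, SDHB over SDHA and NDUFA4 over COX4I1 are higher in every ATRA library, and complex I over V overlaps.

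Complex II, succinate dehydrogenase, was split. SDHB, the iron-sulfur subunit, and SDHD, a membrane anchor, rose in ATRA. SDHA, the flavoprotein subunit, fell, and SDHC, the other anchor, was lower with a call near the threshold. SDHB had 77.1, 74.4 and 86.2 CPM in the ATRA libraries, against 52.3, 50.2 and 53.2 CPM in the DMSO libraries, with no overlap (log2 fold change 0.61, SE 0.05, adjusted p = 8.74e-06). SDHA had 106, 112.3 and 105 CPM in the ATRA libraries, against 151, 145 and 156 CPM in the DMSO libraries, also with no overlap but in the other direction (log2 fold change -0.48, SE 0.05, adjusted p = 3.05e-05). The ratio of SDHB to SDHA counts was 0.739 ± 0.081 in ATRA and 0.345 ± 0.003 in DMSO (SD, n = 3 each). The control in ATRA was the highest library in this ratio, at 0.824. SDHD had 140.5, 127 and 141 CPM in the ATRA libraries, against 117, 94.4 and 114 CPM in the DMSO libraries and hairpin 2 was the lowest library in both treatments (log2 fold change 0.33, SE 0.08, adjusted p = 0.00528). SDHC had 49.6, 48.7 and 47.5 CPM in the ATRA libraries, against 52.2, 52.8 and 54.3 CPM in the DMSO libraries, a small difference without overlap (log2 fold change -0.13, SE 0.05, adjusted p = 0.0442). That call was lost with DESeq2 size factors, DESeq2, limma-voom, the replicate block, either run alone and with any 1 library left out (adjusted p 0.0519 to 0.186). With total counts it was kept, with a larger fall (log2 fold change -0.26, adjusted p = 0.00154). SDHA has 3 and SDHC has 4 named pseudogenes, and SDHD overlaps TIMM8B on the opposite strand, so these 3 carry the reservation that reads could be shared.

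The subunit c genes of complex V were split too. ATP5G1, ATP5G2 and ATP5G3 encode the same mature protein, which forms the rotating ring of ATP synthase. ATP5G3 had 183, 191 and 176 CPM in the ATRA libraries, against 142, 138 and 130.1 CPM in the DMSO libraries (log2 fold change 0.43, SE 0.04, adjusted p = 2.44e-05). ATP5G2 had 129, 119.5 and 130.0 CPM in the ATRA libraries, against 169.5, 169 and 174 CPM in the DMSO libraries (log2 fold change -0.44, SE 0.05, adjusted p = 3.34e-05). ATP5G1 had 15.9, 17.7 and 14.8 CPM in the ATRA libraries, against 21.2, 19.4 and 19.9 CPM in the DMSO libraries (log2 fold change -0.32, SE 0.08, adjusted p = 0.00658). None of these 3 overlapped between treatments: ATP5G3 was higher and the other two were lower in ATRA. Of the counts of the 3 genes, ATP5G3 took 56.3 ± 1.68% in ATRA and 41.7 ± 1.32% in DMSO, and ATP5G2 took 38.7 ± 2.07% and 52.2 ± 1.39% (SD, n = 3 each, not corrected for length). ATP5G1 took 4.95 ± 0.39% and 6.15 ± 0.22%. ATP5G1 has 7 and ATP5G2 has 3 named pseudogenes.

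**Figure D4:**
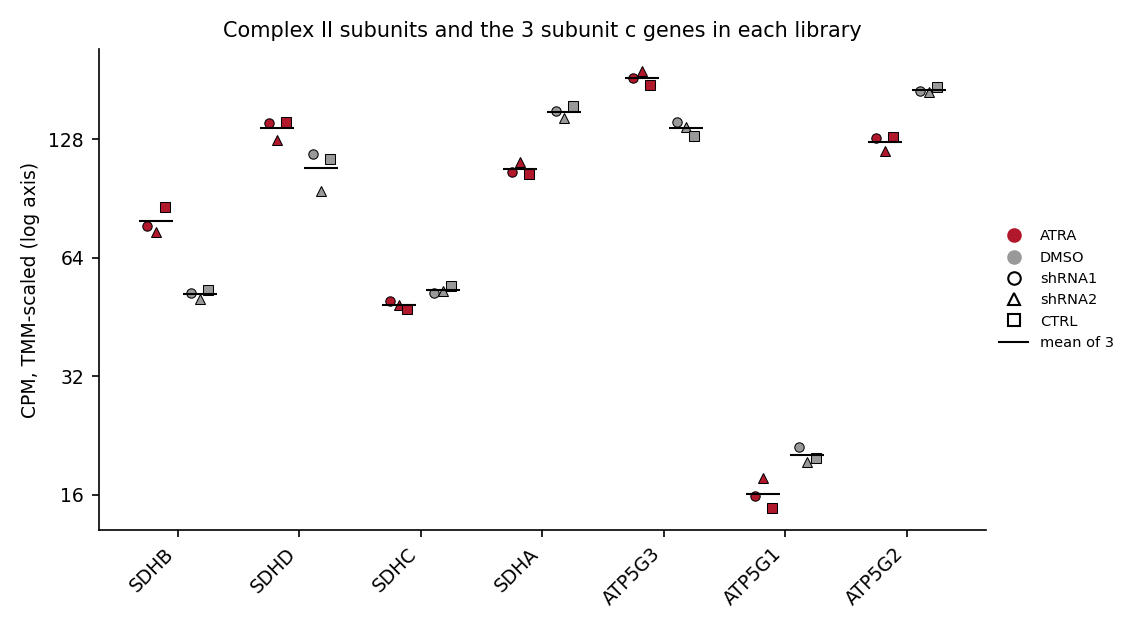
CPM on a log axis for the 4 complex II subunits and the 3 subunit c genes in each library, with ATRA left of DMSO, symbols for the constructs and bars for the mean of 3. SDHB, SDHD and ATP5G3 are higher and SDHA, SDHC, ATP5G1 and ATP5G2 lower in ATRA, with no overlap for any of the 7.

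The largest change in complex V was that of ATP5E, the epsilon subunit of the central stalk, which rose (71.9 ± 2.41 CPM in ATRA and 48.0 ± 1.24 CPM in DMSO; log2 fold change 0.58, SE 0.05, adjusted p = 5.46e-06), but its locus overlaps TUBB1 on the opposite strand by 1188 bases and the sources used here do not state whether counting used strand. ATP5A1, the alpha subunit, fell (354 ± 5.09 CPM in ATRA and 433 ± 24.3 CPM in DMSO; log2 fold change -0.29, SE 0.04, adjusted p = 3.73e-04). ATP5B, the catalytic beta subunit, had the highest level per length of all members, at 419 CPM per kb in ATRA and 390 in DMSO. Its response was small (log2 fold change 0.10, SE 0.04, adjusted p = 0.0498) and turned to -0.026 with total counts. It did not pass with run 2 alone, with the replicate block (adjusted p = 0.0544) or with any 1 library left out. ATP5L, a membrane subunit, rose by a log2 fold change of 0.14, which did not pass with total counts (0.012), with run 2 alone or without any 1 of 4 of the libraries, and ATP5C1, the gamma subunit, fell by 0.13 on the log2 scale. None of the 4 peripheral stalk genes passed the test, and their log2 fold changes ran from -0.14 to -0.03. With total counts all 4 passed as lower, at -0.27 to -0.16 (adjusted p 0.00213 to 0.00998). Over complex V, 4 of 15 rose and 4 fell, against 36.2% and 37.8% of all genes. With total counts, 2 rose and 11 fell, against 29.6% and 46.5% of all genes.

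In complex I, 15 of 37 subunits rose and 8 fell, against 36.2% and 37.8% of all genes, with a median log2 fold change of 0.03. With total counts 8 rose and 16 fell, against 29.6% and 46.5% of all genes. The 7 core subunits, which carry the flavin, the iron-sulfur clusters and the quinone site, moved little: 3 rose and 1 fell, with log2 fold changes from -0.14 to 0.25. With total counts the 3 that rose, NDUFV2 (0.054), NDUFS7 (0.032) and NDUFS8 (0.12), did not pass. NDUFS3, the 1 that fell, was still lower (-0.27, adjusted p = 6.26e-04). NDUFV1, the flavoprotein that oxidises NADH, had 180.1, 177 and 173 CPM in the ATRA libraries, against 192, 183 and 193 CPM in the DMSO libraries. The groups did not overlap but the difference did not pass (log2 fold change -0.10, SE 0.04, adjusted p = 0.0735); it did with total counts (-0.23), with run 1 alone (-0.13) and without hairpin 2 in DMSO (-0.13). The wider responses were among the 30 accessory subunits, of which 12 rose and 7 fell. NDUFB1 had 28.6, 28.8 and 30.6 CPM in the ATRA libraries, against 13.3, 15.7 and 14.7 CPM in the DMSO libraries, and its 3 ATRA libraries all stood far above the DMSO libraries (log2 fold change 1.01, SE 0.08, adjusted p = 5.59e-06). NDUFA9, which sits beside the quinone site, had 60.3, 59.6 and 61.2 CPM in the ATRA libraries, against 38.9, 41.4 and 41.7 CPM in the DMSO libraries (log2 fold change 0.57, SE 0.05, adjusted p = 1.09e-05). Its locus overlaps the coding genes AC005833.1 and AC005832.4 on the same strand by 1589 bases, so reads could be shared. NDUFA1 had 28.95, 28.1 and 27.4 CPM in the ATRA libraries, against 19.0, 21.2 and 17.1 CPM in the DMSO libraries (log2 fold change 0.56, SE 0.07, adjusted p = 1.48e-04), and its locus overlaps RNF113A on the opposite strand.

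On the other side, NDUFB9, a subunit of the membrane arm, had 39.7, 39.4 and 45.6 CPM in the ATRA libraries, against 66.7, 70.0 and 68.2 CPM in the DMSO libraries (log2 fold change -0.72, SE 0.06, adjusted p = 6.87e-06). NDUFA10 had 109.6, 111 and 111 CPM in the ATRA libraries, against 148, 151 and 149 CPM in the DMSO libraries, with hardly any spread among constructs (log2 fold change -0.43, SE 0.04, adjusted p = 1.65e-05). NDUFB6 had 55.0, 54.9 and 49.1 CPM in the ATRA libraries, against 71.6, 70.3 and 70.4 CPM in the DMSO libraries (log2 fold change -0.42, SE 0.05, adjusted p = 9.09e-05). In all 3 the ATRA libraries lay below the DMSO libraries. NDUFA13, also known as GRIM-19 and first described as a gene induced by interferon and retinoic acid, rose slightly (107 ± 3.67 CPM in ATRA and 95.6 ± 5.99 CPM in DMSO; log2 fold change 0.17, SE 0.05, adjusted p = 0.0103). It did not pass with total counts (0.035) or without hairpin 1 in ATRA (0.14).

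In complex III, 4 of 9 subunits rose and 1 fell, against 36.2% and 37.8% of all genes. With total counts 2 rose and 2 fell, against 29.6% and 46.5% of all genes. The small subunits UQCR10 (30.0 ± 2.05 CPM in ATRA and 21.6 ± 1.46 CPM in DMSO; log2 fold change 0.48, SE 0.08, adjusted p = 6.13e-04) and UQCR11 (35.7 ± 3.25 CPM in ATRA and 25.7 ± 1.21 CPM in DMSO; log2 fold change 0.47, SE 0.06, adjusted p = 1.22e-04) rose most. UQCRFS1, the Rieske iron-sulfur protein, rose by a log2 fold change of 0.28, and CYC1, cytochrome c1, by 0.18 (adjusted p = 0.00643); with total counts neither passed, at 0.15 and 0.052, nor did CYC1 with run 2 alone (0.15). UQCRH, the hinge protein, was lower (log2 fold change -0.27, SE 0.05, adjusted p = 0.0019), as was its intronless copy UQCRHL (log2 fold change -0.41, SE 0.10, adjusted p = 0.00409), and reads of this pair may not be separable. UQCRHL did not pass with run 2 alone (-0.22). UQCRC2, a core protein, did not pass (log2 fold change -0.09, SE 0.05, adjusted p = 0.12) but did with total counts (-0.22) and with run 2 alone (-0.15).

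Among the 7 complex I assembly factors, 2 rose and 3 fell, against 36.2% and 37.8% of all genes. With total counts NDUFAF1 (-0.17, adjusted p = 0.0393) and NDUFAF7 (-0.21, adjusted p = 0.0279) were lower too, as were 46.5% of all genes. NDUFAF2, a chaperone that binds a late assembly intermediate, had the lowest response of all 88 members, with 9.48, 8.15 and 7.80 CPM in the ATRA libraries, against 22.9, 22.9 and 20.8 CPM in the DMSO libraries. All ATRA values lay far below all DMSO values (log2 fold change -1.39, SE 0.09, adjusted p = 1.29e-06). NDUFAF6 fell (log2 fold change -0.42, SE 0.06, adjusted p = 1.70e-04), while NDUFAF3 (log2 fold change 0.60, SE 0.08, adjusted p = 1.11e-04) and NDUFAF5 (log2 fold change 0.42, SE 0.09, adjusted p = 0.00297) rose. NDUFAF3 overlaps DALRD3 on the opposite strand. COX7A2L, a factor that joins complexes III and IV into supercomplexes, did not pass (log2 fold change -0.10, SE 0.06, adjusted p = 0.187) except with total counts (-0.23). NDUFA4L2, a paralog of NDUFA4 known from hypoxic cells, stood at 1.05 to 2.30 CPM in all libraries and had the lowest level per length (1.27 CPM per kb in ATRA and 1.30 in DMSO).

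Genes of the same pathway outside the symbol rule also went both ways, as did all genes tested (36.2% higher and 37.8% lower). Of 40 further assembly factors tested, 10 rose and 15 fell, with a median log2 fold change of -0.09. COX17, the copper chaperone that supplies complex IV, rose (27.0 ± 0.922 CPM in ATRA and 13.7 ± 1.63 CPM in DMSO; log2 fold change 0.99, SE 0.08, adjusted p = 4.96e-06). LYRM7, which helps insert the Rieske protein into complex III (log2 fold change -1.14, SE 0.06, adjusted p = 5.28e-07), and NUBPL, an iron-sulfur factor of complex I (log2 fold change -0.81, SE 0.08, adjusted p = 3.34e-05), fell. Of 24 electron carriers and ATP synthase partners, 6 rose and 9 fell. SQRDL, which feeds electrons from sulfide to ubiquinone, rose (log2 fold change 1.16, SE 0.06, adjusted p = 4.31e-07). DHODH, the pyrimidine synthesis enzyme that feeds the same pool (log2 fold change -0.97, SE 0.06, adjusted p = 8.29e-07), and COQ3, a ubiquinone synthesis enzyme (log2 fold change -0.66, SE 0.10, adjusted p = 4.43e-04), fell.

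Of 18 tricarboxylic acid cycle genes, 9 rose and 7 fell. Of the NAD-linked isocitrate dehydrogenase, the subunits IDH3G (log2 fold change 0.87, SE 0.04, adjusted p = 2.66e-07) and IDH3A (log2 fold change 0.60, SE 0.06, adjusted p = 1.54e-05) rose, while the subunit IDH3B, added here after its values were seen, fell (83.7 ± 3.88 CPM in ATRA and 102 ± 6.93 CPM in DMSO; log2 fold change -0.28, SE 0.06, adjusted p = 0.00198). The NADP-linked IDH2 fell (log2 fold change -0.64, SE 0.08, adjusted p = 1.13e-04). Of 17 regulators of mitochondrial biogenesis, 5 rose and 9 fell. ESRRA, a nuclear receptor that acts on respiratory chain promoters, had 244 ± 13.1 CPM in ATRA and 95.9 ± 7.07 CPM in DMSO (log2 fold change 1.35, SE 0.05, adjusted p = 3.82e-08). MYC had 214 ± 20.4 CPM in ATRA and 1055 ± 70.6 CPM in DMSO (log2 fold change -2.31, SE 0.07, adjusted p = 2.03e-08), and POLG2, the accessory subunit of the mitochondrial DNA polymerase, fell (log2 fold change -0.82, SE 0.06, adjusted p = 2.87e-06). With total counts the split of higher to lower was 7 to 22 for the assembly factors, 3 to 14 for the carriers and partners, 7 to 9 for the cycle and 3 to 11 for the regulators. Over all genes, 36.2% were higher and 37.8% lower with TMM, and 29.6% higher and 46.5% lower with total counts, so the background moved toward lower too.

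SMARCD2 knockdown was then set against control, to ask whether the respiratory chain follows loss of this BAF subunit. Over both treatments, 0 of 88 members passed, as did 0% of all 12301 genes. At an unadjusted p under 0.05 there were 6 members and 1003 of all genes; DESeq2 called 1 member lower, and 20 genes higher and 28 lower in all, and limma-voom called none. In ATRA alone 0 members passed (9 at an unadjusted p under 0.05), against 0.00813% of all genes, with 1329 of all genes at an unadjusted p under 0.05. In DMSO alone 0 members passed (7 at an unadjusted p under 0.05), against 0% of all genes, with 868 of all genes at an unadjusted p under 0.05. DESeq2 and limma-voom called no member within either treatment; over all genes DESeq2 called 17 higher and 35 lower in ATRA, and 32 higher and 6 lower in DMSO. The median member log2 fold change was 0.03 over both treatments, with a median SE of 0.06, and 86 of the 87 members other than NDUFA4L2 lay within 0.25 of 0.

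CYC1 had the lowest p of the members. It stood at 61.0 and 58.6 CPM with the hairpins and 71.6 CPM with the control in ATRA, and at 52.9 and 52.8 against 62.8 CPM in DMSO. Every hairpin library lay below the control of its treatment (log2 fold change -0.25, SE 0.05, adjusted p = 0.431). DESeq2 put it past the threshold, with an adjusted p of 0.0314. In the authors' deposited table its adjusted p for knockdown in ATRA was 0.0277, the only member under 0.05 there, and none was in DMSO. The share of all genes under 0.05 by the authors' test was not counted here, so these counts have no background. How that test treated the 2 runs of a library was not examined, so its p-value may not be comparable with those above. The value was -0.28 with run 1 alone and -0.25 with run 2 alone, and the part of the unequal run mix was not tested further.

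COX5A stood at 109.8 and 104 CPM with the hairpins and 120.4 CPM with the control in ATRA, and at 73.9 and 71.4 against 85.7 CPM in DMSO (log2 fold change -0.20, SE 0.05, adjusted p = 0.456). NDUFA4L2 stood at 1.05 and 1.147 against 2.30 CPM in ATRA and at 1.28 and 1.28 against 2.04 CPM in DMSO (log2 fold change -0.87, SE 0.21, adjusted p = 0.456). Neither passed, although each hairpin library lay below its control. Among positive values, NDUFC1 (0.17), UQCR11 (0.17) and NDUFAF2 (0.16) led, also without passing. Within DMSO, ATP5D (log2 fold change -0.35, SE 0.13, adjusted p = 0.702), NDUFAF5 (0.30), NDUFA1 (0.23) and NDUFB4 (0.22) were among the members farthest from 0 with the same sign for both hairpins. Within ATRA these included NDUFS4 (-0.24), UQCR11 (0.23), COX5B (0.21) and UQCRQ (0.18), and none of the 8 values passed. The hairpin libraries of a treatment were set against the same control library.

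**Figure D5:**
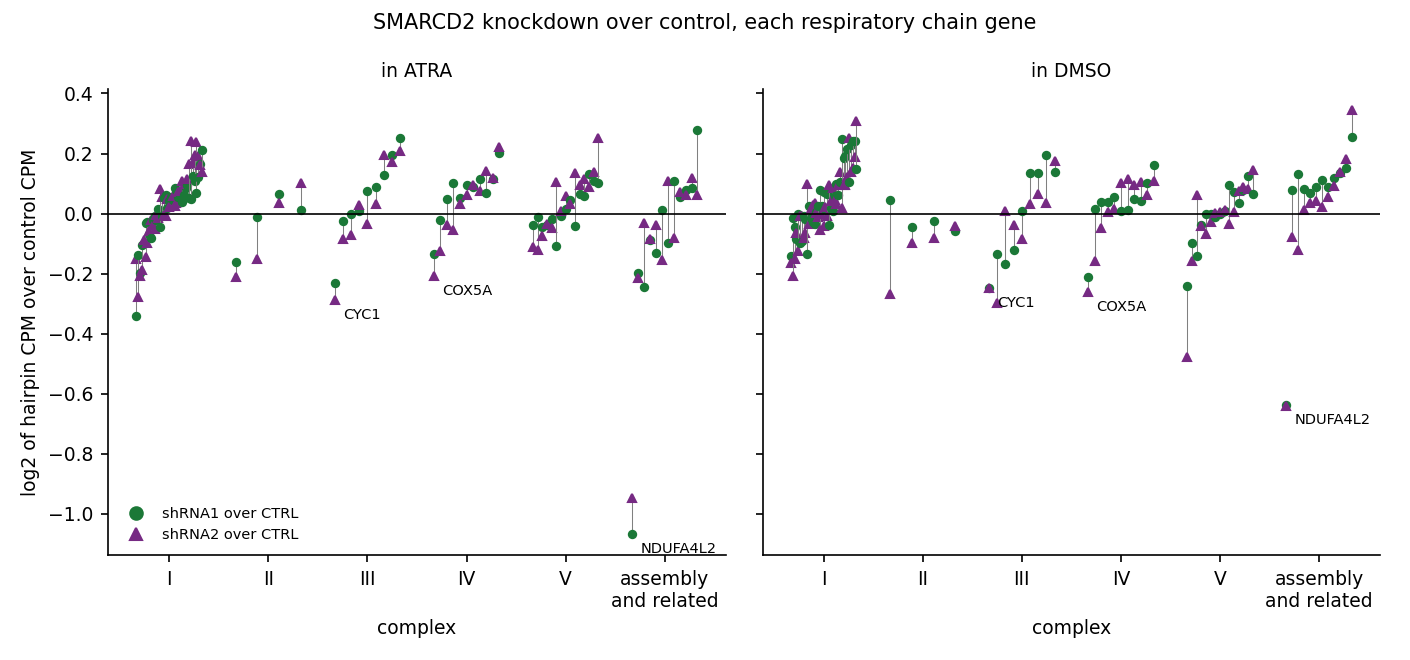
For each member, the log2 ratio of hairpin CPM to control CPM on the y axis by complex, with hairpin 1 as circles and hairpin 2 as triangles joined by a line, in ATRA on the left and DMSO on the right. Nearly all points lie close to 0; CYC1, COX5A and NDUFA4L2 lie below 0 for both hairpins in both treatments.

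The ATRA response of knockdown cells was compared with that of control cells as a difference of differences. No member passed, against 0.0488% of all genes. At an unadjusted p under 0.05 there were 0 members and 979 of all genes. DESeq2 and limma-voom called no member, while DESeq2 called 1 higher and 47 lower over all genes. The median SE was 0.11, and the widest values were NDUFA4L2 (log2 fold change -0.39, SE 0.42, adjusted p = 0.846), NDUFS4 (log2 fold change -0.39, SE 0.19, adjusted p = 0.663) and ATP5D (log2 fold change 0.35, SE 0.19, adjusted p = 0.675). These SEs leave room for differences of the size of many of the ATRA responses above.

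Between the hairpins, 1 member of 88 passed, against 2.03% of all 12300 genes tested. SDHD was lower with hairpin 2, at 127 CPM against 140.5 CPM with hairpin 1 in ATRA, and at 94.4 against 117 CPM in DMSO. The control stood at 141 CPM in ATRA and 114 CPM in DMSO, near hairpin 1. The call was close to the threshold (log2 fold change -0.22, SE 0.06, adjusted p = 0.0488) and was lost with total counts, with DESeq2, with run 1 alone and once the trend over transcript length was removed. The next widest values were NDUFA4 (-0.16), COX7A2L (-0.16) and NDUFA3 (0.17), none past the threshold.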

How the data were processed

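The 6 libraries were made, per the labels' protocols, from RNA purified on GeneJET columns with the NEBNext Ultra kit. The submitters' processing notes name the build GRCh37.p13 and the tools STAR, bcl2fastq, DESeq2 and Picard 2.5.0; the sources used here do not state the counting step or its use of strand. For each treatment the authors deposited 1 table (12838 genes for ATRA, 12752 for DMSO, 12301 shared) with raw counts in 2 columns per library, taken here as runs and summed. The authors' log2 fold change and their p-value (raw and adjusted) are in the same deposited tables, and 12 columns of normalized values were not used. Genes in both tables were filtered with filterByExpr, scaled with TMM (library sizes from full tables) and tested in edgeR (glmQLFit and glmQLFTest), adjusting p over all genes by Benjamini-Hochberg with a threshold of 0.05. ATRA and knockdown over both treatments came from 1 fit with 2 terms (3 residual degrees of freedom). Knockdown within a treatment and the difference in ATRA response came from a fit of 4 groups (2 residual degrees of freedom), in which the lone controls are assumed to vary like the hairpins. Hairpin 2 was set over hairpin 1 in the 4 knockdown libraries (1 residual degree of freedom). SE is the absolute log2 fold change over the square root of F. The log2 ratios plotted per hairpin use a pseudocount of 0.1 CPM. Transcript lengths, overlaps and pseudogenes are from GENCODE v29 (median coding transcript), matched by symbol, and promoters are from RefSeq GRCh38.p14. Same-strand overlaps with other coding genes are also annotated for COX8A, COX6A1, SDHD, UQCR11, ATP5L and NDUFA13, among other members. Ratios of counts used an exact permutation test.

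The genes named were, per complex and in the assembly group, up to 3 called members per direction with the largest ATRA change, the most abundant member, all of complex II, CYC1, NDUFA13, isoform families, the widest values of each knockdown comparison and 3 genes of each list outside the rule. The members and lists were chosen with earlier results of these data known. R 4.3.3, edgeR 4.0.16, limma 3.58.1, DESeq2 1.42.0, Python 3.11.15, pandas 2.3.3 and matplotlib 3.10.9 were used. The fits were tested on simulated data.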

Additional observations from a re-analysis of the deposited data

How the results depend on the processing

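Alternatives were DESeq2 size factors, total counts, no filter, DESeq2, limma-voom, either run alone, a replicate block, each library left out, a fit within 1 treatment, structural subunits only and removal of the length trend. Leaving out the filter kept the same 12301 genes (12301 in place of 12300 between the hairpins). Its 81 values of named genes, counted below, thus repeat the main fit and test nothing. With each library left out, 31 to 37 members were higher and 15 to 20 lower in ATRA. Over all genes these shares were 33.3% to 35.0% and 34.3% to 36.0%. With total counts, 24 members were higher and 41 lower, against 37 and 20 with TMM. Over all genes 29.6% were higher and 46.5% lower with total counts, against 36.2% and 37.8% with TMM. ATP5B turned to -0.026 with total counts, and COX4I1 to -0.13 with an adjusted p of 0.0335. COX4I1 stayed near 0 elsewhere, at -0.0028 with run 1 alone and between -0.032 and 0.045 with each library left out, at -0.028 without the control in DMSO, -0.032 without the control in ATRA and -0.016 without hairpin 1 in ATRA. For knockdown over both treatments DESeq2 called 1 member lower, CYC1, and NDUFC1 turned to -0.025 with run 2 alone. SDHD between the hairpins was lost, leaving 0 lower members, with total counts, with DESeq2, with run 1 alone and with the length trend removed. The causes were not tested, except that the scaling shift follows from the total counts. The gene values named gave 1161 further values, of which 1110 kept their direction and side of the threshold, 37 lost it, 7 gained it and 7 reversed. For the 8 ratios of counts, the runs alone and each library left out, chosen after seeing the data, gave 64 values of the ATRA minus DMSO difference in means. All lay within 1 SD, the larger of the treatments, of the main difference. With 3 libraries per treatment, leaving 1 out cannot move a mean by 1 SD, so only the values of the runs alone could have failed this.

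Construct titles pair the treatments. Deviations of the same construct correlated between treatments with r = 0.188 for hairpin 1, 0.211 for hairpin 2 and 0.0787 for the control (9467 genes at a mean of 10 CPM or more), so the pairing is not shown for all 3. The difference of hairpin 2 from hairpin 1 correlated between treatments with r = 0.267 over the same genes. The main fits of ATRA and knockdown hold no construct term beyond knockdown state. With the replicate block, 35 members were higher and 20 lower in ATRA, against 36.3% and 38.0% of all genes. In the knockdown comparisons 0 members passed with it. Over all genes the block moved the calls to 8 higher and 2 lower over both treatments, 85 and 31 in DMSO, 149 and 199 in ATRA, and 16 and 113 for the difference in response. Within a treatment the spread behind the knockdown tests comes from the hairpin libraries, as each treatment has 1 control library. NDUFA4L2 is limited by its low counts, and its knockdown value was -0.68 with run 1 alone and -1.31 with run 2 alone.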
